A study of Mus musculus with 4 samples.

Results

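The 4 Hox clusters of the mouse were examined for CTCF, cohesin and H3K4me3 in embryonic stem cells. All 39 genes named Hoxa, Hoxb, Hoxc or Hoxd with a number were taken, of 21631 protein-coding genes on the autosomes and X chromosome: 11 in Hoxa, 10 in Hoxb, 9 in Hoxc and 9 in Hoxd. Peaks were taken across each cluster, from its first to its last Hox gene end, and 100 kb on each side. In mm10 the Hoxb cluster is chr11:96194316-96368254, Hoxc chr15:102921131-103036856 and Hoxd chr2:74668225-74765142, and Hoxa lies on chr6. The cells were Bruce-4, a single embryonic stem cell line of C57BL/6J genotype grown in serum/2i/LIF medium, without other treatment, so each group was one antibody on the same kind of cell. ChIP-exo, in which an exonuclease trims immunoprecipitated DNA towards the bound protein, was performed on 10000000 fixed cells per library with antibodies to H3K4me3 (1 library), CTCF (2 libraries) and RAD21 (1 library). One peak list per antibody was analysed, the CTCF list being a union by its name. The lists gave positions only, so depth and peak height were unknown, an uncalled site cannot be told from an unbound one, and no spread between cultures could be measured.

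Hox genes encode homeodomain transcription factors that give cells their position along the head-to-tail axis, and within a cluster they lie in the order in which they are switched on. Genes at the same place in different clusters descend from one ancestral gene and form a paralogue group: low numbers pattern the hindbrain and neck, middle numbers the trunk, and high numbers the lumbar region, tail, limbs and genitalia. In embryonic stem cells the clusters are known to be largely silent and held by Polycomb proteins, with H3K4me3 at many promoters alongside the repressive mark. CTCF recognises DNA through its zinc fingers and stops cohesin, the ring complex that extrudes chromatin loops and of which RAD21 is a subunit. Deletion of a CTCF site between Hoxa5 and Hoxa6 is known to let active chromatin spread towards higher-numbered genes in motor neurons.

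Of the H3K4me3, CTCF and RAD21 lists, 58 of 21600, 58 of 51737 and 76 of 75897 peaks lay in the Hox windows. As a check of the cell type, the H3K4me3 list had a peak within 1 kb of either end at 7 of 8 pluripotency genes, with the widest peak, 2792 bp, at Nanog. Esrrb, the exception, had a peak inside the gene. Fibroblast markers had it at 4 of 8 genes (Col1a1, Col1a2, Acta2 and Postn had none at an end) and differentiation markers at 3 of 6 (Sox17, Gata6 and T). Both shares are near the 57.2% of all protein-coding genes that had it, and a peak of this mark does not show transcription. A contribution of other cells was not tested.

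Sequences of the promoters on which CTCF peaks lay are shown first, because CTCF binding is set by DNA sequence. RefSeq (GRCm38.p6, the assembly that mm10 names) listed starts for 22 of the 39 Hox genes, as 24 windows of 300 bases from 250 before to 50 after the start. Of these, H3K4me3 overlapped 8 (all promoter windows 35.9%), CTCF 2 (7.67%) and RAD21 2 (14.9%). Those with CTCF, which were also those with RAD21, belonged to Hoxa5, an essential gene of lung and thorax development, and Hoxd10, a gene of lumbar motor neurons. For each, the 250 bases before the start are printed 5′ to 3′ on the gene's strand, from chr6:52204588-52204837 (minus strand) and chr2:74691641-74691890 (plus strand), and capitals mark a match to the CTCF motif.
Hoxa5: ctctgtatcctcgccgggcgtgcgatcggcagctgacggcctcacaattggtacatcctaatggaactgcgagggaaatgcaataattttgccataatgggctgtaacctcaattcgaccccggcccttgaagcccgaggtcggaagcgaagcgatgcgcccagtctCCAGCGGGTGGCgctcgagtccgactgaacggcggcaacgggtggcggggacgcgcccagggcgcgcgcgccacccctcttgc
Hoxd10: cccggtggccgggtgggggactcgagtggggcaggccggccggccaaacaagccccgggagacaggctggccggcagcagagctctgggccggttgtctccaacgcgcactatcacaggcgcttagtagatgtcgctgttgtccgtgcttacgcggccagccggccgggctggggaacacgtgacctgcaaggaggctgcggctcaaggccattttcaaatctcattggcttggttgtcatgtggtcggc

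Both strands of the 300-base windows were searched for the consensus core of the CTCF motif, exactly and at up to 1 mismatch, a form chosen after looser spellings had been tried. Hoxa5 carried CCAGCGGGTGGC, with a mismatch, at chr6:52204659-52204670, within its 435 bp CTCF peak and 35.5 bp from the peak's midpoint. In the Hoxd10 window, whose CTCF peak reached to 74 bp from the start, no such match was present. An exact match was found in 0 of the 24 Hox windows, against 0.557% of all 32851 promoter windows, and a match at up to 1 mismatch in 1, against 4.33%. Among all windows overlapping CTCF the shares were 6.03% and 24.9%, and among those without CTCF 0.102% and 2.62%. A match describes the letters only, and most windows with a CTCF peak had none of this form.

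Peaks of all 3 kinds were dense along the clusters (plot of peak positions). CTCF was densest in Hoxb, with 14 peaks in the 174.0 kb cluster or 8.05 per 100 kb, followed by Hoxa with 8 (7.58 per 100 kb), Hoxd with 6 (6.19) and Hoxc with 5 (4.32). Over all chromosomes the density was 1.97 per 100 kb. Of 26319 fixed bins of 100 kb, 2.69% reached the CTCF density of Hoxb, 4.34% that of Hoxa, 6.63% that of Hoxd and 15.1% that of Hoxc. A cluster is bounded by its own genes while bins are placed blindly, so these shares describe and do not test. RAD21 density ran from 6.63 in Hoxa to 9.29 per 100 kb in Hoxd, against 2.88 over all chromosomes, and 11.6% of bins reached the value of Hoxa, Hoxb or Hoxc and 2.35% that of Hoxd.

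**Figure D1:**
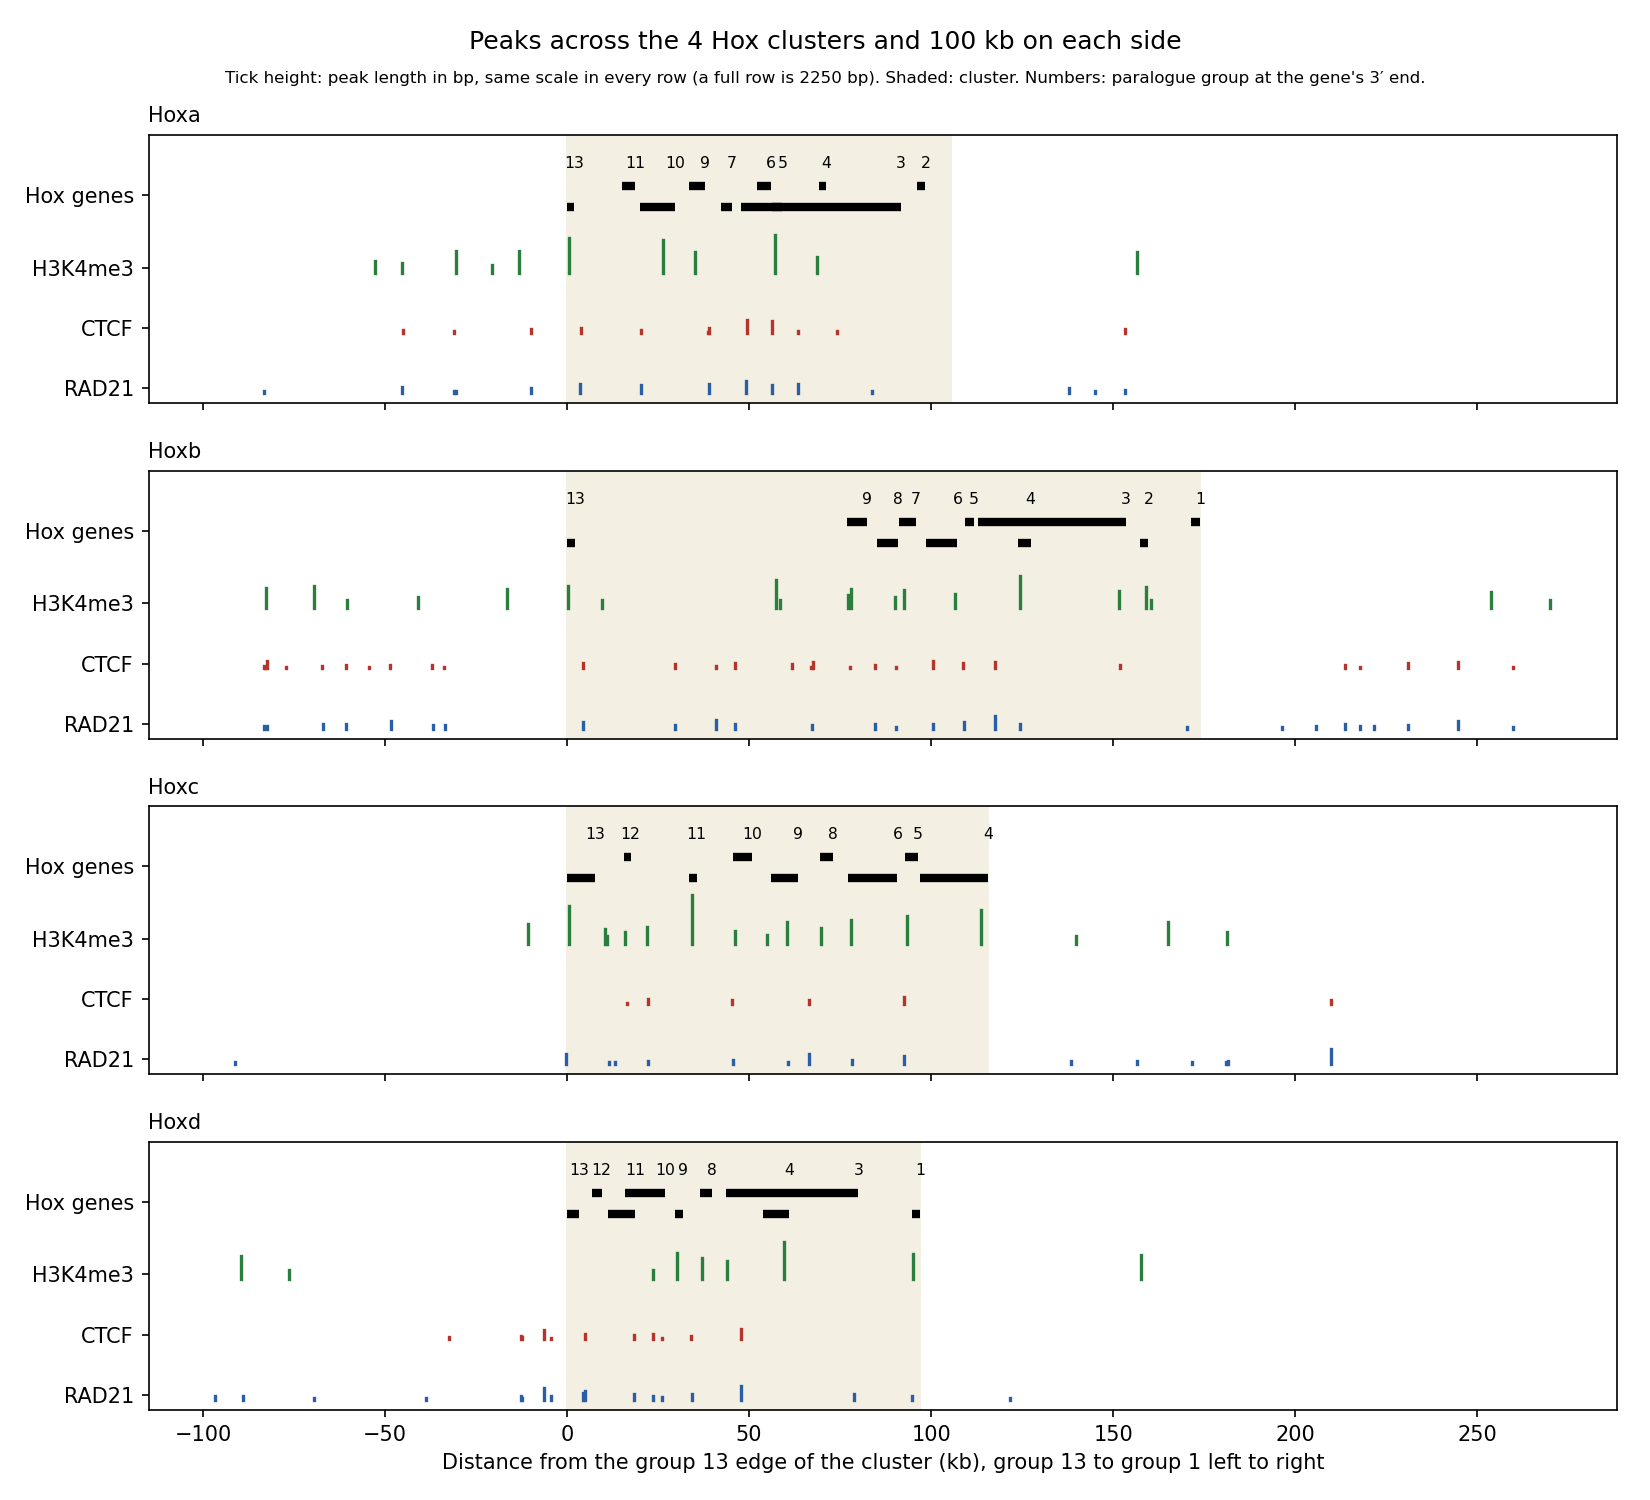
Positions of peaks (one row each for H3K4me3, CTCF and RAD21) and Hox genes along the 4 clusters, against distance in kb from the edge next to the group 13 gene; tick height is peak length in bp, shading marks the cluster, and 1 gene with its peak is not drawn. CTCF ticks stop at least 22.0 kb before the right edge of each shaded cluster, and soonest in Hoxd, where the last lies 47.8 kb along and 49.1 kb of the cluster follow without one.

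H3K4me3 was the mark furthest above its level over all chromosomes. Hoxc had 13 peaks in 116.0 kb, 11.2 per 100 kb, a density that 0.0266% of bins reached. Hoxb also had 13 peaks but over a longer cluster (7.47 per 100 kb, reached by 0.395% of bins), Hoxd had 6 (6.19, reached by 0.779%) and Hoxa had 6 (5.69, reached by 1.61%). Over all chromosomes the density was 0.821. The order of the clusters therefore differed between marks: Hoxc was the densest for H3K4me3 and the sparsest for CTCF. These densities are per length and were not scaled to the number of genes, which are closely packed in the clusters. The 4 clusters held 39 Hox genes and 38 H3K4me3 peaks, and all chromosomes 21631 protein-coding genes and 21600 peaks.

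**Figure D2:**
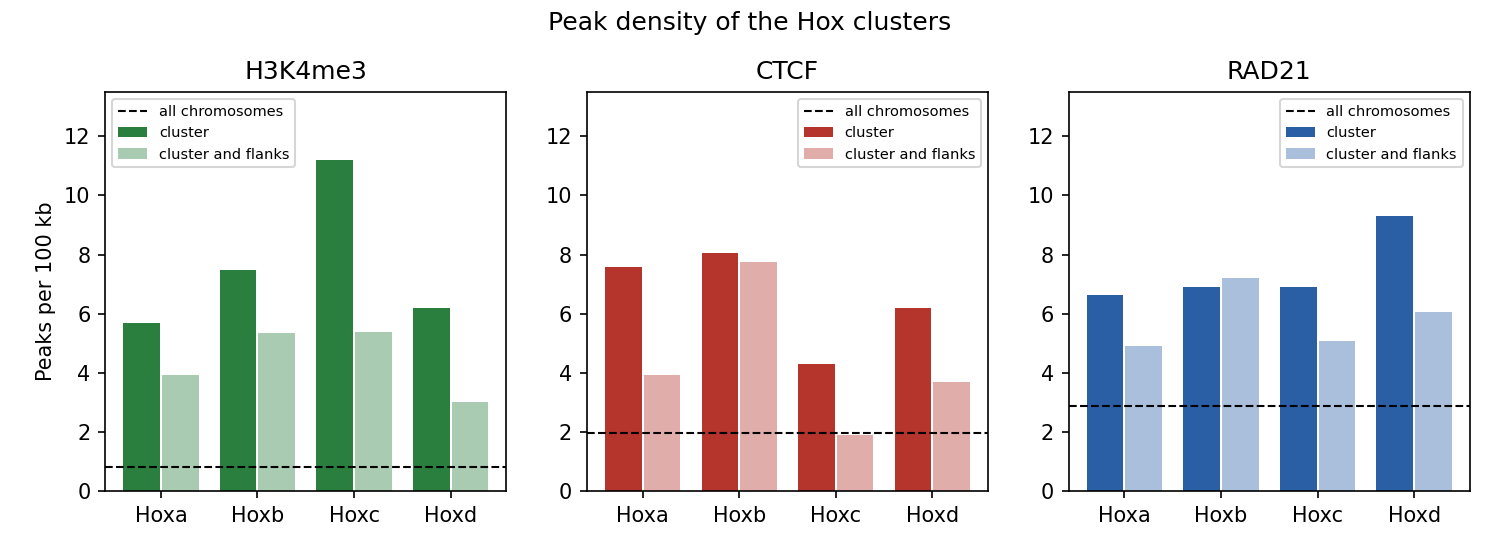
Peaks per 100 kb in each Hox cluster (dark bars) and in the cluster with 100 kb on each side (pale bars), for the 3 antibodies; the dashed line is the density over all chromosomes used. Hoxc stands highest for H3K4me3 at 11.2 and lowest for CTCF at 4.32, and its CTCF density with flanks, 1.9, is about that of all chromosomes, 1.97.

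The flanks differed between the clusters as well. Beyond the group 13 gene the 100 kb held 10 CTCF peaks at Hoxb, 5 at Hoxd, 3 at Hoxa and none at Hoxc. Beyond the last gene at the other side they held 5 at Hoxb, 1 at Hoxa, 1 at Hoxc and none at Hoxd. All 10 Hoxb peaks on the group 13 side lay in Calcoco2 or Ttll6, the neighbouring protein-coding genes. At Hoxd, 4 of the 5 lay in Evx2, a homeobox neighbour, or in the noncoding Gm31790 beside it.

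Cohesin accompanied most CTCF sites. In the clusters 26 of 33 CTCF peaks overlapped RAD21 by at least 1 bp (78.8%, Wilson 95% interval 62.2 to 89.3, counting error only), against 81.9% of all CTCF peaks. Conversely 26 of 36 RAD21 peaks overlapped CTCF (72.2%, 56.0 to 84.2), against 55.9% of all RAD21 peaks, a share that lies just outside the lower end of the interval. In the windows with flanks it was 47 of 76 (61.8%, 50.6 to 71.9). Few peaks of the clusters stood on H3K4me3: 5 of 38 H3K4me3 peaks overlapped CTCF (13.2%, 5.75 to 27.3; all peaks 17.1%) and 8 overlapped RAD21 (21.1%, 11.1 to 36.3; all peaks 31.5%). Both intervals include the shares over all peaks, so no difference was detectable with these numbers.

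Paired peaks were longer. In the windows, CTCF peaks with RAD21 had a median length of 142.0 bp (n = 47, range 37 to 462) and those without 39 bp (n = 11, range 37 to 155). Over all chromosomes the medians were 119.0 and 39 bp. RAD21 peaks with CTCF had a median of 186.0 bp (n = 47) and those without of 92.0 bp (n = 29), against 183.0 and 95 bp over all chromosomes. Of the 7 CTCF peaks in clusters without RAD21, 3 had the minimum length of that list, 37 bp, and of the 10 RAD21 peaks without CTCF 3 had the minimum of theirs, 71 bp. These shortest calls are among the least extended in the lists, and whether they are as well supported as longer ones was not tested.

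Taking genes in turn, 13 of the 39 Hox genes had CTCF within 1 kb of either annotated end (33.3%, Wilson 95% interval 20.6 to 49.0), against a background of 26.5% of protein-coding genes. RAD21 lay at 14 (35.9%, 22.7 to 51.6; background 38.6%) and H3K4me3 at 25 (64.1%, 48.4 to 77.3; background 57.2%). All 3 counts were near their backgrounds, so as a set the Hox genes did not stand apart in this measure. Counting a peak anywhere in the gene or within 1 kb gave 17 for CTCF, 20 for RAD21 and 31 for H3K4me3, with backgrounds of 56.3%, 65.8% and 64.9%. For the 22 genes with a listed start, 10 had H3K4me3, 3 had CTCF and 5 had RAD21 within 1 kb of it, with backgrounds of 59.6%, 21.6% and 34.4%.

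The genes with CTCF were unevenly spread over the paralogue groups. In groups 1 to 4, none of 12 genes had CTCF at an end (upper Wilson limit 24.2%), in groups 5 to 8, 6 of 11 had it (54.5%, 28.0 to 78.7), and in groups 9 to 13, 7 of 16 (43.8%, 23.1 to 66.8). Neighbours that share a peak, such as Hoxa5 and Hoxa6, are each counted, so these intervals do not measure variation between independent sites. The bands depend on the window: within 2.5 kb the counts for groups 1 to 4 and 9 to 13 were 2 and 13, within 500 bp the latter was 3, and with only CTCF peaks above the median length it was also 3. The group 3 genes Hoxa3, Hoxb3 and Hoxd3 had CTCF inside their annotated span, but these models are long (44009, 40830 and 36279 bp). That of Hoxa3 runs over Hoxa4, Hoxa5 and Hoxa6, that of Hoxb3 over Hoxb4 and that of Hoxd3 over Hoxd4.

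Groups 5 and 10 were those with CTCF at every member, 3 of 3 each, and all 6 sites also had RAD21. These groups were picked out after their values were seen. Hoxa5 had its start inside the peak chr6:52204412-52204846. Hoxb5, which acts in vagal neural crest, had a 187 bp peak (chr11:96303140-96303326) 186 bp outside its 5′ edge. Hoxc5 had a 261 bp peak (chr15:103013649-103013909) 99 bp outside the 5′ edge.

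In group 10 the peaks of Hoxa10 and Hoxc10 lay close to the outermost 5′ edge as well. Hoxa10, a gene needed for uterine function, had a 113 bp peak (chr6:52240499-52240611) 243 bp inside its 5′ edge. The other listed start of Hoxa10 was 5560 bp from that peak. Its promoter window overlapped H3K4me3, that of the outer start did not, and CTCF overlapped neither. Hoxc10, a hindlimb and lumbar gene, had a 142 bp peak (chr15:102966490-102966631) 165 bp outside the edge. At Hoxd10 the peak counted was a 61 bp one (chr2:74694208-74694268) within 1 kb of the annotated 3′ end. The 198 bp peak at chr2:74691620-74691817 lay 74 bp from the listed start of Hoxd10 but not within 1 kb of either annotated end, and the CTCF peak nearest to the outermost 5′ edge was 2122 bp away.

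The order of sites along the clusters was compared in steps from one Hox gene to the next. Bounded by gene midpoints, 24 of 35 steps held a CTCF peak (68.6%, Wilson 95% interval 52.0 to 81.4), by cluster 7 of 10 in Hoxa, 7 of 9 in Hoxb, 5 of 8 in Hoxc and 5 of 8 in Hoxd. Among 7949 steps of 1 to 30 kb between neighbouring protein-coding genes, 49.7% held one, with a median step of 16.0 kb. The Hox steps in that size range were shorter (median 10.5 kb), and 23 of 32 held CTCF (71.9%). Of the 31 gaps between annotated gene ends (median 4.23 kb), 16 held CTCF (51.6%, 34.8 to 68.0). The 49.7% belongs to longer steps that include gene bodies. Gaps between other genes were not counted, so the share in the Hox gaps has no like background. Genes in a cluster are neighbours, so the interval does not measure variation between independent loci.

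Because the long model of Hoxa3 puts its midpoint out of order, steps between paralogue groups were also bounded by 3′ ends, a choice made after the data had been seen. With these bounds 23 of 35 steps held CTCF and 20 held CTCF with RAD21. Sites inside a gene can fall in another step when the bounds change. The same steps could then be read across clusters (plot of CTCF peaks by step). A difference between steps rests on 1 to 4 clusters and has no test.

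**Figure D3:**
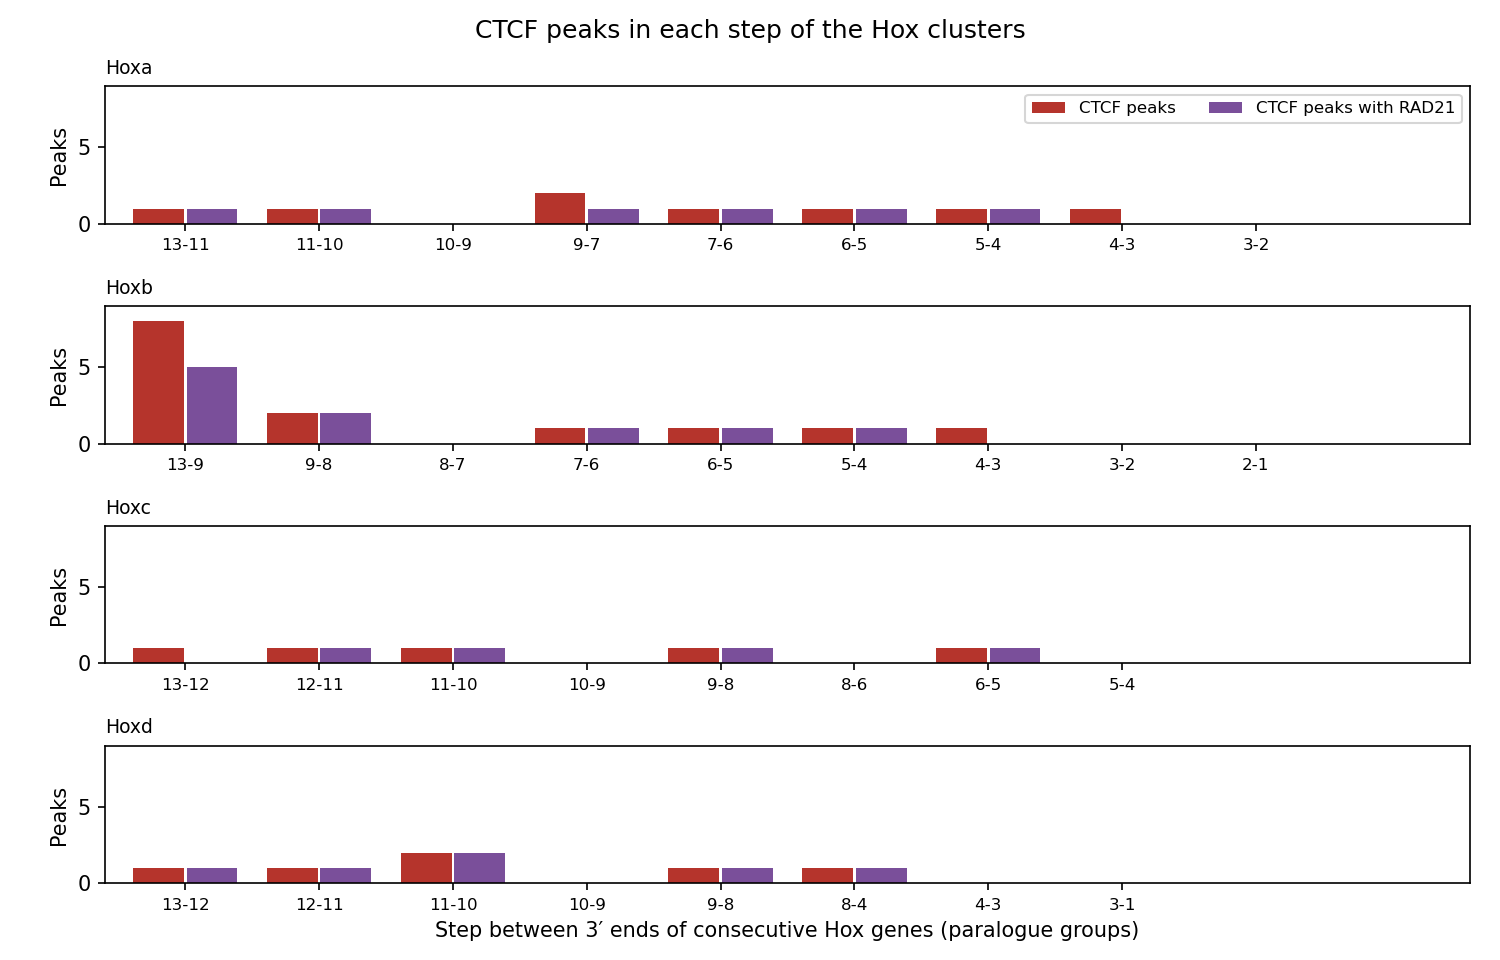
Number of CTCF peaks (red) and of CTCF peaks overlapping RAD21 (purple) in each step between 3′ ends of consecutive Hox genes (1 step without peaks is not drawn), with paralogue groups on the horizontal axis and one panel per cluster. Every cluster has both bars in the step leaving group 9, no cluster with these genes has either in the step from group 10 to 9 with these bounds (with midpoints Hoxd has 2 of each), and no purple bar stands in steps that start at group 4 or below.

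The step leaving group 9, towards group 8 or, in Hoxa, which lacks that gene, towards group 7, held CTCF with RAD21 in all 4 clusters, as it did with midpoints and in the gaps between gene ends. In Hoxa the site was a 177 bp peak at chr6:52221708-52221884, with a second CTCF peak of 39 bp and no RAD21 at chr6:52222158-52222196. In Hoxb there were a 140 bp peak at chr11:96278907-96279046 and a 51 bp peak inside Hoxb8 at chr11:96284604-96284654, both with RAD21. In Hoxc it was a 130 bp peak at chr15:102987541-102987670 and in Hoxd a 111 bp peak at chr2:74702349-74702459. None of these 5 paired sites overlapped H3K4me3. Over all chromosomes 3693 H3K4me3 peaks overlapped CTCF, beside 51737 CTCF peaks. Such overlap was uncommon, so its absence is not particular to this step.

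Other steps shared CTCF with RAD21 among all clusters that have the genes. From group 11 to 10 it was present in 3 of 3 clusters and from 6 to 5 in 3 of 3, the sites being those near groups 10 and 5 described above, including the 61 bp site within Hoxd10. The step from 6 to 5 held such a site in all 3 with midpoints and in the gaps as well, whereas the Hoxa gap from 11 to 10 held none. In the steps between groups 13 and 11 of Hoxa and 8 and 4 of Hoxd, which have no counterpart in the other clusters, the sites were 163 bp (chr6:52257081-52257243) and 389 bp (chr2:74715863-74716251) long. From 7 to 6 it was present in both Hoxa (462 bp, chr6:52211350-52211811) and Hoxb (259 bp, chr11:96294657-96294915), though the Hoxb gap held none. From 12 to 11 it was present in both Hoxc (166 bp, chr15:102943333-102943498) and Hoxd (176 bp, chr2:74686395-74686570), but the Hoxd site was in this step with 3′ end bounds only: with midpoints and in the gap, Hoxd had no CTCF there. The longest CTCF peaks of the 4 clusters were those of the Hoxa 7 to 6 step (462 bp), Hoxa5 (435 bp) and the Hoxd 8 to 4 step (389 bp).

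Steps that lacked CTCF depended on the bounds. From group 10 to 9, none of 3 clusters had CTCF with 3′ end bounds, but with midpoints the Hoxd step held 2 CTCF peaks, both with RAD21. H3K4me3 was present there in 3 of 3 clusters with either bounds. The step from 8 to 7 in Hoxb held no CTCF, but 1 peak, the 51 bp one with RAD21 inside Hoxb8, with midpoints. The step from 8 to 6 in Hoxc held none with 3′ ends, midpoints or gaps. The clusters disagreed at the step from 5 to 4: Hoxa had an 87 bp and Hoxb a 246 bp CTCF peak, each with RAD21, while the 19.4 kb step of Hoxc had neither protein. They disagreed again from 13 to 12, where Hoxd had a 194 bp CTCF peak with RAD21 and Hoxc a 37 bp CTCF peak inside Hoxc12 without it.

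The step from Hoxb13 to Hoxb9 stood apart in length, 80.0 kb, since Hoxb has no gene of groups 10, 11 and 12. It held 8 CTCF peaks, 5 of them with RAD21. Hoxb13, a gene of the prostate and tail end, was followed 2032 bp away by the first of these, a 184 bp site. The last was a 37 bp CTCF peak without RAD21 inside Hoxb9, which overlapped a 706 bp H3K4me3 peak.

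Past group 4, CTCF with RAD21 was not found up to the end of any cluster. The 8 steps from group 4 or lower, 117 kb in all, held 2 CTCF peaks, neither with RAD21: a 62 bp peak in Hoxa (chr6:52186694-52186755) and a 127 bp peak in Hoxb (chr11:96346194-96346320). The other 27 steps, 360 kb, held 26 CTCF peaks with RAD21, or 7.23 per 100 kb. Over all chromosomes the density was 1.61 per 100 kb, so 0 in 117 kb is not far from that of the genome at large. It was the higher-numbered parts of the clusters that departed from it. The 3′ end bounds were chosen after the data had been seen, so this contrast describes and does not test. Hoxc, which ends at group 4, has no such step. RAD21 lay in 4 of the 8 steps and H3K4me3 in 5.

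The distance of paired CTCF and RAD21 sites from the cluster edges was likewise unequal at the ends. On the group 13 side, the nearest pair outside was 4.45 kb away at Hoxd, 9.77 kb at Hoxa, 33.7 kb at Hoxb and 113.0 kb, beyond the window, at Hoxc. The first pair inside was 3.64 kb from the edge in Hoxa, 4.33 kb in Hoxb, 4.86 kb in Hoxd and 22.2 kb in Hoxc. Hoxa and Hoxd therefore had pairs within 10 kb on both sides of this edge, Hoxb had one on the inner side, and Hoxc on neither.

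At the opposite edge the pairs were far on both sides. The last pair inside lay 22.9 kb from the edge in Hoxc, 42.1 kb in Hoxa, 48.9 kb in Hoxd and 56.4 kb in Hoxb. The nearest outside lay 39.6 kb away in Hoxb, 47.7 kb in Hoxa, 94.0 kb in Hoxc and 199.0 kb, beyond the window, in Hoxd. Between them were the longest stretches without any CTCF peak in each window. These measured 61.5 kb in Hoxb, 79.1 kb in Hoxa, 117.0 kb in Hoxc and 149.0 kb in Hoxd, the last reaching the end of the window and so a lower limit. In Hoxc the group 13 side was also free of CTCF, from the end of the window to 16.4 kb inside the cluster. That stretch was nearly as long and is cut by the window, so it may be the longer one. Within the clusters neighbouring CTCF peaks were a median of 8.17 kb apart in Hoxd, 8.6 kb in Hoxb, 10.2 kb in Hoxa and 22.1 kb in Hoxc.

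RAD21 without CTCF was found at several gene ends. Hoxc13, a gene of hair and nails, had a 386 bp RAD21 peak (chr15:102920623-102921008) that reached to 123 bp from the gene and overlapped its 1414 bp H3K4me3 peak. Hoxd1 had a 132 bp RAD21 peak on its 937 bp H3K4me3 peak, and Hoxb4, known from blood stem cells, a 159 bp RAD21 peak on its 1188 bp H3K4me3 peak. Further RAD21 peaks lay on H3K4me3 inside Hoxc6 (143 bp) and Hoxc9 (85 bp). Hoxd13, a gene of the digits, had a 234 bp RAD21 peak 966 bp away that overlapped neither CTCF nor H3K4me3. Of the 10 RAD21 peaks without CTCF inside the clusters, 4 overlapped H3K4me3, so most did not. The Hoxc13 peak lies just outside its cluster and is not among the 10. A like share over all RAD21 peaks without CTCF is not given here.

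H3K4me3 covered 30016 bp of the 4 clusters (6.1%), or 610.0 bp per 10 kb against 62.0 bp over all chromosomes. Hoxc had the most, 10335 bp (8.93%), then Hoxb with 7942 bp (4.57%), Hoxa with 6608 bp (6.26%) and Hoxd with 5131 bp (5.29%). Hoxa reached its total with few, long peaks, of median 1252.5 bp (n = 6, the shortest 589 bp), whereas Hoxb and Hoxc had many, mostly shorter ones, of median 654.0 bp (n = 13, 294 to 1188) and 622.0 bp (n = 13, 294 to 1794). The Hoxd median was 867.5 bp (n = 6, 335 to 1391). Together the 38 peaks had a median of 737.0 bp, near the 682.0 bp of all H3K4me3 peaks. The excess per kb thus lay in the number of peaks more than in their length. Peaks per gene looked alike, with 38 peaks for 39 Hox genes against 21600 for 21631 protein-coding genes. These ratios are not like measures, since the 38 lay within the cluster bounds and the 21600 anywhere. By gene, 31 of 39 Hox genes had a peak inside or within 1 kb, against 64.9% of protein-coding genes. Of the 38, 30 overlapped a Hox gene.

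**Figure D4:**
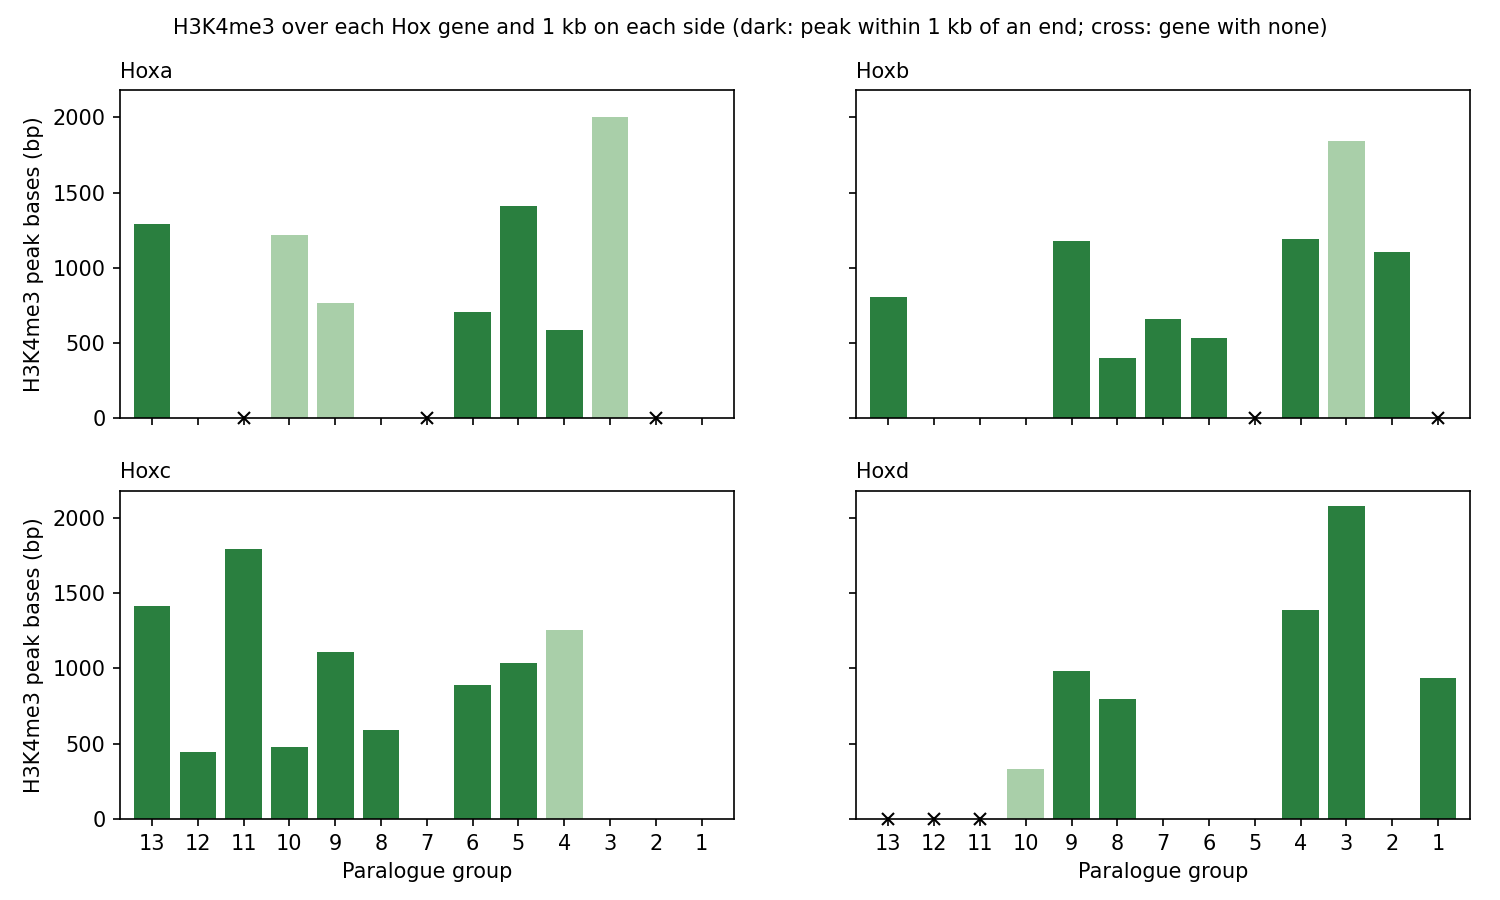
Bases under H3K4me3 peaks (bp) over each Hox gene and 1 kb on each side, by paralogue group and cluster; dark bars have a peak within 1 kb of an end, pale bars only inside, crosses mark genes with none, and a place with neither is a group that the cluster lacks or that is not drawn. Hoxc has a bar for all 9 genes, Hoxd has crosses at groups 11 to 13, and the tall bars of group 3 include bases of the neighbours that those long gene models overlap. Pale bars at Hoxa10, Hoxc4 and Hoxd10 include a peak on a listed promoter window, which lies inside the outer gene ends.

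Length along the clusters did not follow the gene order in the same way in each. In groups 9 to 13, all 5 Hoxc genes had H3K4me3 at an end and a median of 1111.0 bp, while in Hoxd only Hoxd9 of 5 had it at an end and the median was 0.0 bp. Hoxa and Hoxb lay between, with medians of 991.5 bp (4 genes) and 993.5 bp (2 genes). In groups 1 to 4 Hoxd had the mark at the ends of 3 of 3 genes, Hoxa and Hoxb each at 2 of 4, and Hoxc4, the single Hoxc gene of this band, only inside. The Hoxc4 peak did overlap the listed promoter window of that gene, which lies inside its outer ends. Marked lengths were not ordered for this band, because the long group 3 models count bases of their neighbours again: the 2077 bp of Hoxd3 include the 1391 bp of Hoxd4. Pooled over clusters, the medians were 658.0 bp for groups 5 to 8 and 788.5 bp for 9 to 13, with ranges that started at 0 in both.

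No H3K4me3 peak lay in or within 1 kb of 8 genes. They were Hoxa2, a gene of the branchial arches, Hoxa7, Hoxa11, a gene of forearm and kidney, Hoxb1, a hindbrain gene, Hoxb5, Hoxd11, Hoxd12 and Hoxd13. Of these 8 genes, Hoxb5 and Hoxd11 had CTCF with RAD21 within 1 kb of an end. Long peaks at a gene end were those of Hoxc11 (1794 bp) and Hoxc13 (1414 bp). Hoxa5 and its neighbour Hoxa6 shared a peak of 1411 bp, the only peak of the Hoxa cluster that also overlapped CTCF. Of genes with any mark, the fewest marked bases were 335 bp at Hoxd10, 402 bp at Hoxb8 and 447 bp at Hoxc12.

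Genes of a paralogue group often differed in the mark. In group 13, Hoxc13 (1414 bp), Hoxa13 (1290 bp) and Hoxb13 (809 bp) had a peak and Hoxd13 had none. In group 11, Hoxc11 had the longest peak of all 4 clusters whereas Hoxa11 and Hoxd11 had none. Hoxd1 had 937 bp and Hoxb1 none. Group 4 was marked in all 4 clusters, with marked bases of 1391 bp at Hoxd4, 1254 bp at Hoxc4, 1188 bp at Hoxb4 and 589 bp at Hoxa4.

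The clusters also hold the miR-10 and miR-196 genes, known for repressing Hox transcripts. Their mature sequences are shown, 5′ to 3′ with the seed (bases 2 to 8) in capitals, because the copies in different clusters share a seed. All were taken from RefSeq.
mmu-miR-10a-5p: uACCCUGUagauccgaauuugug
mmu-miR-10b-5p: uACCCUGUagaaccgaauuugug
mmu-miR-196a-5p: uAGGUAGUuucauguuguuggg
mmu-miR-196b-5p: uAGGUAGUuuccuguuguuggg

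Mir10a, in Hoxb beside Hoxb4, and Mir10b, in Hoxd beside Hoxd4, share the seed ACCCUGU and lay on the group 1 side of the last paired CTCF site of their clusters. The nearest CTCF peak was 5.27 kb from Mir10a and 9.82 kb from Mir10b, and H3K4me3 was 0.975 and 1.07 kb away. The 3 miR-196 genes share AGGUAGU and lie beside group 9 genes. Their distances to CTCF were 3.24 kb for Mir196a-1 in Hoxb, 6.72 kb for Mir196a-2 in Hoxc and 7.88 kb for Mir196b in Hoxa, and to H3K4me3 6.03, 2.61 and 3.63 kb. Neither family had a peak of CTCF within 1 kb. Only 26.5% of protein-coding genes had one within 1 kb of an end, so this is the usual case. Neighbouring CTCF peaks in the clusters were a median of 8.17 kb (Hoxd) to 22.1 kb (Hoxc) apart, so these distances do not set the miRNA genes apart.

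The other genes of the Hox pathway were read from a list of 36 cofactors and regulators. These comprise the Pbx, Meis and Pknox partners of Hox proteins, the Cdx and Evx homeobox genes, enzymes and receptors of retinoic acid, and Polycomb and trithorax group proteins. H3K4me3 lay at an end of 31 (86.1%), CTCF of 12 (33.3%) and RAD21 of 17 (47.2%), beside the backgrounds of 57.2%, 26.5% and 38.6%. The longest H3K4me3 peaks were 1951 bp at Eed, a core Polycomb subunit, and 1906 bp at Pbx3. Cyp26b1, which degrades retinoic acid, had none at an end but one inside, and Evx2, next to Hoxd13, had none while carrying CTCF and RAD21 at an end. Its counterpart Evx1, beyond Hoxa13, had a 426 bp H3K4me3 peak and neither protein at its ends.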

How the data were processed

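The 4 ChIP-exo libraries came from Bruce-4 embryonic stem cells fixed for 10 min in 1% formaldehyde, per the labels' protocols. Bowtie2 2.4.5, MACS2, Picard 2.27.4, bedtools 2.30.0 and the build mm10 appear in the submitters' processing notes; what each did, and the threshold for a peak, is not given in the sources used here. Peak positions (chromosome, start, end), and no other values, were deposited by the authors, so depth is unknown. Of the CTCF libraries only the second has a list, named a union, and a list of the first was not analysed here.

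Peaks on the 19 autosomes and X were counted in Python 3.11.15 (numpy 2.4.6, pandas 2.3.3, scipy 1.17.1, matplotlib 3.10.9), with starts made 1-based. Genes came from RefSeq GRCm38.p6 as outer ends. Starts and strand were listed for 22 Hox genes, exons and peak sequences were not analysed here, and each cluster was read from group 13 to group 1. An overlap was at least 1 bp. Counts in clusters and windows took any peak that overlapped them, and counts in steps used peak midpoints. Intervals are Wilson 95% intervals for counting error. The counting of peaks at gene ends was checked on simulated peaks, and the Wilson intervals were not. With 1 list per antibody no test was run. Members, marker lists and the list of regulators were chosen with earlier results of these data known. Any Hox gene could be named, and of the regulators the 2 with the longest H3K4me3 peaks and, by alphabet, the first 2 with none at an end; the longest and shortest 3 served as examples. One Hox gene is counted in the totals but not reported here. Alternatives varied gene windows, flanks, peak lengths kept, overlap and step bounds.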

Additional observations from a re-analysis of the deposited data

How the results depend on the processing

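Of 57 alternative values, 38 kept within 1.5 times the main count or within its interval and 19 moved. The number of Hox genes with CTCF at an end, 13 of 39, was 8 within 500 bp, 24 within 2.5 kb, 8 with peaks above the median length and 3 of 22 at listed starts. With RAD21 it was 14, and 28 within 2.5 kb and 5 of 22 at listed starts; with H3K4me3 it was 25, and 10 of 22 at listed starts. At listed starts fewer genes were counted by construction. Among all protein-coding genes with a listed start the shares within 1 kb were 21.6% for CTCF, 34.4% for RAD21 and 59.6% for H3K4me3. CTCF peaks in the windows (58) numbered 98 with flanks of 200 kb, 33 in the clusters alone and 37 above the median length; RAD21 peaks (76) numbered 123, 36 and 40; H3K4me3 peaks (58) numbered 38 in the clusters alone and 31 above the median length. Steps with CTCF numbered 24 of 35 with midpoints, 23 of 35 with 3′ ends and 16 of 31 (51.6%) as gaps between gene ends. No share of such gaps over all genes was counted. The share of CTCF peaks with RAD21 and the H3K4me3 length over the clusters did not move past these limits under the alternatives run for them. No paired analysis was possible because each antibody had 1 peak list. Leaving out a CTCF library was not run, since CTCF had 1 list. It is named a union, and whether it unites both libraries is not stated. Depth is unknown, and a site missing from a list shows only that no peak was called there.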

Other observations

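Noncoding genes of the clusters carried some of the peaks away from Hox genes. Hotair, the antisense transcript of the Hoxc cluster, had a 622 bp H3K4me3 peak, CTCF and RAD21 within 1 kb of an end. Hottip, which lies beyond Hoxa13, had none of the 3. Gm53, between Hoxb13 and Hoxb9, had H3K4me3 peaks of 1047 and 308 bp and 3 CTCF peaks, 1 of them with RAD21. Mir615, within Hoxc5, lay inside the 1037 bp H3K4me3 peak of that gene, 1.0 kb from the CTCF site. Of the protein-coding neighbours, Lnpk and Mtx2, on either side of Hoxd, had H3K4me3 peaks of 854 and 904 bp at an end and no CTCF there. RAD21 lay at an end of Lnpk but not of Mtx2. Skap1, beyond Hoxb1, had a 294 bp H3K4me3 peak that overlapped neither CTCF nor RAD21, though both proteins had a peak within 1 kb of an end of the gene.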
